A study of Homo sapiens with 12 samples.

Results

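The scRNA class of repeat elements gathers the genomic copies of small cytoplasmic RNAs, namely the Y RNAs (subfamilies HY1, HY3, HY4 and HY5) and BC200. Its members were taken by name, as every listed element whose class was exactly scRNA, whether the reads lay on the strand of the element (sense) or against it (antisense). Of 2321299 repeat elements listed in at least 1 library, 548 were scRNA elements: 203 of HY3, 198 of HY1, 84 of BC200, 57 of HY4 and 6 of HY5. The libraries came from A375, a human melanoma cell line, in which V5-tagged proteins were expressed by transient transfection. RNA was labelled with 4-thiouridine from 24 h after transfection, crosslinked at 316 nm and recovered with an anti-V5 antibody (PAR-CLIP), then depleted of ribosomal RNA and made into stranded libraries.

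There were 4 constructs with 3 libraries each. Clover, a fluorescent protein with the V5 tag, was the control. Z18fl was full-length ZC3H18, Z18trunc was a truncated ZC3H18, and Z18truncZnFmut was the truncated protein with aromatic residues of its zinc finger mutated. ZC3H18 is a nuclear zinc-finger protein that links capped RNA to the exosome machinery of RNA decay. All cells, those of the control included, also held their own ZC3H18, and the tagged proteins were overexpressed. Each construct was expressed and immunoprecipitated in triplicate, and the sources used here do not say how far apart the 3 transfections were, so every p-value measures the spread between these libraries, which may be technical. The files list repeat elements only, so neither ZC3H18 nor markers of melanoma cells could be checked.

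Y RNAs are short stem-loop RNAs transcribed by RNA polymerase III. Their stem is bound by the Ro60 protein and the run of U at their 3′ end by the La protein. The human genome carries 4 Y RNA genes side by side and many retrocopies of them, most of which are taken to be pseudogenes. BC200, the product of BCYRN1, is a primate RNA of the same polymerase that arose from an Alu element and is known from neurons and from tumours. Retrocopies that lie in introns are transcribed as part of the pre-mRNA of their host gene.

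The 4 Y RNA genes share the 8-base word TGGTCCGA from base 4 on, which lies in the stem, and RNY1, RNY4 and RNY5 are shown because every HY1, HY4 or HY5 element is a copy of 1 of them. They are given 5′ to 3′ in the genome build hg38, with the shared word in capitals. RNY1 lies at chr7:148987136-148987248 on the minus strand, and RNY4 and RNY5 lie on the plus strand at chr7:148963315-148963410 and chr7:148941488-148941571.
RNY1: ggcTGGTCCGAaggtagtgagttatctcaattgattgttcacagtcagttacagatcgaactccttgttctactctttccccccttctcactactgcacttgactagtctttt
RNY4: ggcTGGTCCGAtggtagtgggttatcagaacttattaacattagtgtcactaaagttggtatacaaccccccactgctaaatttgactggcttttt
RNY5: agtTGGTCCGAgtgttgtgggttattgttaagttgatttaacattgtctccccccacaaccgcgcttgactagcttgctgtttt

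The word was still present in 42 of the 464 HY elements (9.05%), on the strand of the element in all 42. Among 198129 elements of other classes that were 80 to 120 bp long, 51 held it on either strand (0.0257%). The HY elements were close to full length, with medians of 114 bp for HY1, 98 bp for HY3, 90 bp for HY4 and 78 bp for HY5. Their median identity to the gene, over a global alignment with gaps counted, was 81.4% for HY1, 86.3% for HY3, 82.5% for HY4 and 81.1% for HY5. BC200 elements were farther from their gene, with a median length of 125 bp and a median identity of 52.0%. GENCODE 44 annotates a small RNA gene or pseudogene at 172 of the 198 HY1 elements (86.9%), 172 of the 203 HY3 elements (84.7%) and 40 of the 57 HY4 elements (70.2%). On their own strand 81 HY1 and 87 HY3 elements lay in introns, against 10 and 4 in exons.

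Thymine, which is read as U or its analogue 4-thiouridine in RNA, made up a median of 34.5% of HY1, 35.0% of HY3, 31.8% of HY4 and 36.5% of HY5 elements. In BC200 elements the median was 17.9%.

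The BC200 gene was assigned most of the sense counts of the class, and its nearest listed copy had counts in a single library. BCYRN1 lies on chromosome 2 against the direction of the non-coding gene EPCAM-DT. The copy lies between genes on chromosome X and is 97.5% identical to the gene.

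The class was sparse. Libraries held between 16683132 and 25686948 aligned fragments, of which scRNA elements took between 0.00178% and 0.00392%. In 11 libraries this was 297.09 to 583.44 counts, where a read that aligns to several elements is shared out among them. Z18truncZnFmut replicate 3 held 950.20. That library stood apart in other ways too: 16.3% of its aligned fragments fell in transposable elements, against 6.28% to 9.59% in the other 11, and 55.4% of those were sense, against 60.3% to 64.0%. Values without it are given below where it decides them.

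The summed sense level of the class was higher in every ZC3H18 library than in every Clover library. In counts per 1000000 aligned fragments (CPM), it was 13.97, 15.10 and 14.28 for Clover, 19.60, 15.98 and 17.69 for Z18fl, and 15.71, 18.25 and 18.90 for Z18trunc. In Z18truncZnFmut it was 16.86, 22.97 and 30.85, the last in replicate 3. The means were 14.45 ± 0.585 (SD, n = 3) for Clover, 17.76 ± 1.81 for Z18fl, 17.62 ± 1.69 for Z18trunc and 23.56 ± 7.01 for Z18truncZnFmut. Each of the comparisons with Clover gave p = 0.1 by a two-sided exact permutation test, the smallest value that 3 against 3 libraries can give, and 0.275 after Benjamini-Hochberg adjustment over 55 tests. Without Z18truncZnFmut replicate 3, that construct stayed above every Clover library, and its difference from the Clover mean went from 9.11 to 5.46 CPM. The comparisons share the Clover libraries. Of all 1871 subfamily and strand pairs tested, 34.7% also lay above every Clover library in all 3 constructs.

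Transposable elements were higher in the ZC3H18 libraries as well. The log2 ratio of scRNA to transposable element sense counts was -11.42 ± 0.119 for Clover, -11.52 ± 0.134 for Z18fl, -11.66 ± 0.110 for Z18trunc and -11.42 ± 0.259 for Z18truncZnFmut. The groups overlapped with Clover for Z18fl and Z18truncZnFmut, while every Z18trunc library lay below every Clover library. That difference was -0.24 (exact permutation p = 0.1, 0.275 adjusted). It became -0.079 with uniquely mapping reads (exact permutation p = 0.5) and -0.12 without elements in exons of other genes (p = 0.6, same test). Against copies of small nuclear RNAs (snRNA), the spliceosomal class, the ratio was higher than in Clover by 1.07 on the log2 scale for Z18fl, 0.68 for Z18trunc and 0.37 for Z18truncZnFmut, with no overlap (exact permutation p = 0.1 each, 0.275 adjusted). Without Z18truncZnFmut replicate 3 the last became 0.17. The snRNA level itself was 1451 to 1789 CPM for Clover, 827.0 to 1059 for Z18fl, 1097 to 1290 for Z18trunc and 1693 to 2154 for Z18truncZnFmut. It lay below Clover in Z18fl and Z18trunc and overlapped with it in Z18truncZnFmut, so the ratio moved with both of its parts.

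BC200 gave most of the sense counts of the class in every library, from 55.3% to 73.8%. HY3 gave 13.3% to 29.3%, HY1 7.35% to 15.5%, HY4 2.25% to 8.50% and HY5 at most 1.19%. The order of BC200, HY3, HY1 and HY4 was the same in all 12 libraries. These shares are of counts, not per base.

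**Figure D1:**
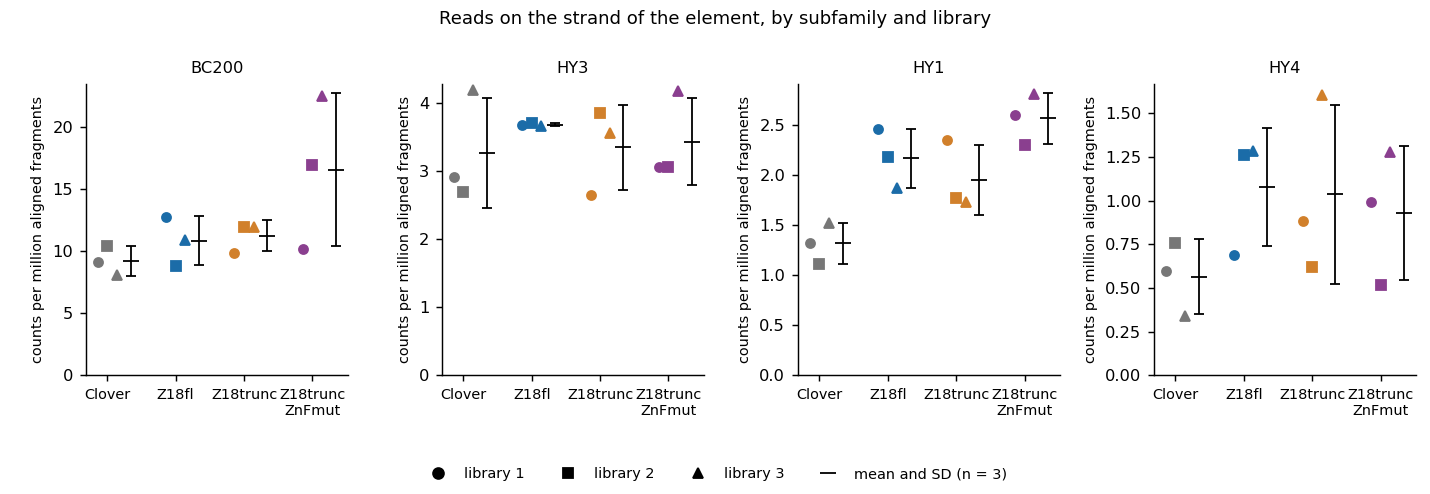
Sense CPM (vertical axes, from 0) of BC200, HY3, HY1 and HY4 in each construct, with 1 point per library and the mean with its SD (n = 3) beside them. The 9 ZC3H18 libraries of HY1 lie between 1.73 and 2.81, above the Clover libraries at 1.11 to 1.53, while in the other panels the groups overlap.

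HY1 was the only scRNA subfamily whose sense level was above all Clover libraries in every ZC3H18 construct, which 34.7% of all 1871 subfamily and strand pairs tested also were. Its sense level was 1.32, 1.11 and 1.53 CPM for Clover, 2.46, 2.18 and 1.87 for Z18fl, 2.36, 1.78 and 1.73 for Z18trunc, and 2.61, 2.30 and 2.81 for Z18truncZnFmut. No ZC3H18 library fell to the level of a Clover library, with or without Z18truncZnFmut replicate 3. The counts behind these values were small, from 19 in Clover replicate 2, with an exact Poisson interval of 11.4 to 29.7 (95%), to 68 in Z18truncZnFmut replicate 3, with an interval of 52.8 to 86.2. Such intervals cover counting error only.

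In the edgeR quasi-likelihood fit over all repeat subfamilies, HY1 sense rose in Z18fl by 0.71 on the log2 scale (SE 0.25, adjusted p = 0.023). The median of all 1904 subfamily and strand pairs rose by 0.44 in the same comparison, so HY1 stood 0.27 above it. With TMM scaling, which sets the bulk of features to no change, the log2 fold change was 0.28 (adjusted p = 0.44), and DESeq2 gave 0.27 (adjusted p = 0.62). The call was lost without Clover replicate 2 (0.60, adjusted p = 0.068), without Z18fl replicate 1 (0.61, adjusted p = 0.097) and without Z18fl replicate 2 (0.71, adjusted p = 0.059). HY1 sense gave 0.56 for Z18trunc (SE 0.30, adjusted p = 0.14) and 0.96 for Z18truncZnFmut (SE 0.53, adjusted p = 0.18), where the medians of all features were 0.48 and 1.03. Without Z18truncZnFmut replicate 3 the value was 0.89 (adjusted p = 0.054), beside a median of 0.32 over all features.

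HY3, the subfamily with the most elements, differed little. Its sense level was 2.91, 2.69 and 4.19 CPM for Clover, 3.67, 3.70 and 3.66 for Z18fl, 2.65, 3.84 and 3.55 for Z18trunc, and 3.06, 3.05 and 4.17 for Z18truncZnFmut. All groups overlapped with Clover, whose replicate 3 was the highest of the 12 libraries. The log2 fold changes against Clover were 0.17 (SE 0.19), 0.04 (SE 0.25) and 0.08 (SE 0.48), all below the medians of all features, and with TMM scaling they were -0.26, -0.41 and -0.73.

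HY4 sense was 0.60, 0.76 and 0.34 CPM for Clover, 0.69, 1.26 and 1.28 for Z18fl, 0.88, 0.62 and 1.61 for Z18trunc, and 0.99, 0.52 and 1.28 for Z18truncZnFmut. Every construct overlapped with Clover. The change in Z18fl was 0.93 on the log2 scale (SE 0.39), beside a median of 0.44 over all features. It missed the threshold in edgeR (adjusted p = 0.053). Of 13 alternatives 2 called it, without Clover replicate 2 (1.21, adjusted p = 0.036) and without Z18fl replicate 1 (1.17, adjusted p = 0.030). In those fits 48.2% and 47.6% of all features were called. TMM scaling gave 0.50 (adjusted p = 0.36) and DESeq2 0.49 (adjusted p = 0.52). The change rests on 6 to 33 counts per library, and 6 counts have an exact Poisson interval of 2.20 to 13.1.

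HY5 was too low to test. It had 0 to 3 sense counts per library, with none in any Z18fl library, where 3 counts would have been 0.117 to 0.131 CPM.

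BC200 sense was 9.15, 10.43 and 8.05 CPM for Clover, 12.78, 8.83 and 10.88 for Z18fl, and 9.82, 11.93 and 11.97 for Z18trunc. In Z18truncZnFmut it was 10.20, 16.95 and 22.51, and only replicates 2 and 3 lay above every Clover library. The edgeR log2 fold changes against Clover were 0.24 (SE 0.14, adjusted p = 0.17) for Z18fl, 0.29 (SE 0.16, adjusted p = 0.16) for Z18trunc and 0.85 (SE 0.43, adjusted p = 0.16) for Z18truncZnFmut. All 3 lay below the median of all features. Without Z18truncZnFmut replicate 3 the last became 0.56, above the median of 0.32, and passed the test (adjusted p = 0.012), as did 23.3% of all features in that fit.

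**Figure D2:**
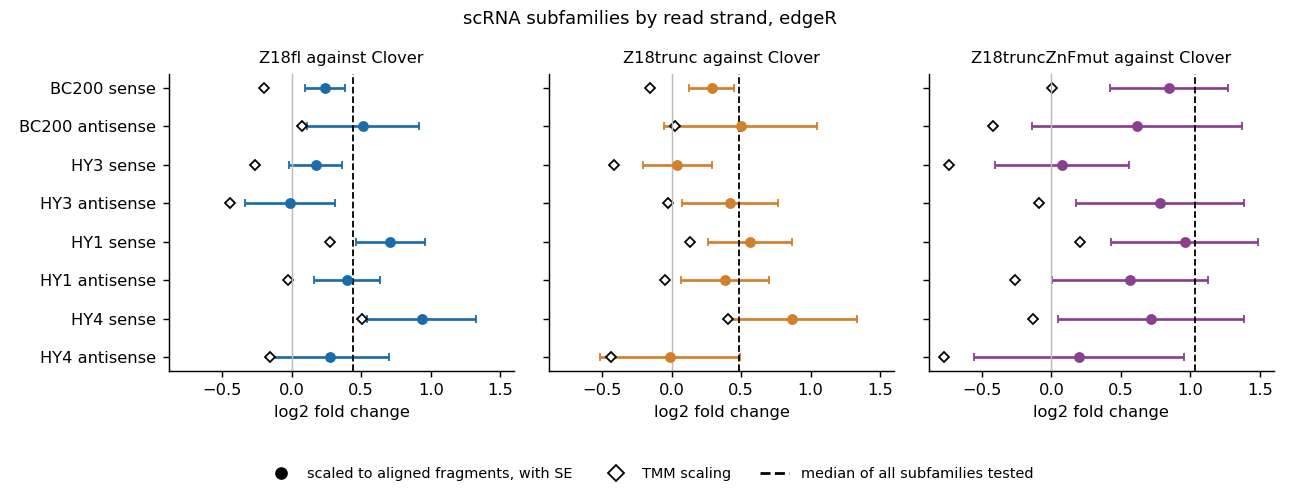
Log2 fold change against Clover (horizontal axes) of each tested scRNA subfamily and read strand, 1 panel per construct, with points and SE bars from edgeR scaled to aligned fragments, open diamonds with TMM scaling and a dashed line at the median of all subfamilies tested. HY1 sense in Z18fl, at 0.71, was the only pair called, and HY3 sense lies left of the dashed line at 0.44, 0.48 and 1.03 in every panel.

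Reads against the strand of the element were fewer. The antisense level of the class was 3.68 ± 0.138 CPM for Clover (SD, n = 3), 4.59 ± 0.481 for Z18fl, 4.76 ± 0.748 for Z18trunc and 5.65 ± 2.52 for Z18truncZnFmut. All Z18fl and Z18trunc libraries lay above Clover (exact permutation p = 0.1, 0.275 adjusted), and Z18truncZnFmut ranged from 3.43 to 8.38, the highest in replicate 3. Its mean exceeded that of Clover by 1.97 CPM, and by 0.60 without that library. HY1, not BC200, was the most abundant antisense subfamily in all 12 libraries, with 33.9% to 53.0% of the antisense counts. Antisense BC200 was above every Clover library in Z18fl alone, at 0.80, 0.74 and 0.90 CPM against 0.24, 0.70 and 0.74, with the nearest libraries equal to 2 decimals.

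Calls in the scRNA class are given here beside the share over all features. Some scRNA pairs rest on few counts, as HY4 sense with 6 to 38 per library, which limits what the test can call. In Z18fl against Clover, 1 of the 8 tested scRNA subfamily and strand pairs was called by edgeR, where 56.0% of all features were. In Z18trunc against Clover none of 8 was called against 43.6%, and in Z18truncZnFmut against Clover none of 8 against 0.0%. None of 8 was called in Z18trunc against Z18fl, where 0.358% of all features were, or in Z18truncZnFmut against Z18trunc, where 0.0% were. In those 4 comparisons no pair had an unadjusted p under 0.05, and DESeq2 called none in any comparison. However, DESeq2 gave no adjusted p for most pairs in Z18truncZnFmut against Clover and in Z18trunc against Z18fl, so those could not be called. The median log2 fold change of the 8 pairs was 0.34, 0.40 and 0.66 in the comparisons with Clover, beside 0.44, 0.48 and 1.03 for all features. Without Z18truncZnFmut replicate 3 the last median was 0.42 over 7 pairs, beside 0.32.

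Pairs in which every library of a construct lay above every Clover library numbered 2 of 8 for Z18fl, 1 of 8 for Z18trunc and 1 of 8 for Z18truncZnFmut. The shares among all features were 57.9%, 53.7% and 45.6%, and neither value for Z18truncZnFmut changed without replicate 3. There was no such pair in Z18trunc against Z18fl, where 12.8% of all features were higher throughout, or in Z18truncZnFmut against Z18trunc, where 3.31% were.

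Between the ZC3H18 constructs the sense log2 fold changes of Z18trunc over Z18fl were 0.05 (SE 0.15) for BC200, -0.15 (SE 0.22) for HY1, -0.14 (SE 0.18) for HY3 and -0.07 (SE 0.39) for HY4. Those of Z18truncZnFmut over Z18trunc were 0.56 (SE 0.42), 0.40 (SE 0.48), 0.03 (SE 0.45) and -0.15 (SE 0.65), with a median of 0.50 over all features. No scRNA subfamily passed the test in either comparison, where 0.358% and 0.0% of all features did. No label states that libraries were paired. A pairing of Z18truncZnFmut with Z18trunc was inferred from these same data, in which their same-numbered libraries deviated together. That inference can rest on Z18truncZnFmut replicate 3, which stood apart. With the replicate number as a block, the values for the mutation were 0.49 for BC200, 0.40 for HY1, 0.04 for HY3 and -0.14 for HY4 (edgeR, adjusted p = 0.93, 0.93, 0.98 and 0.95). BC200 and HY1 sense were higher with the mutation in 3 of 3 pairs, as were 19.6% of all features.

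The copies of other small RNAs (classes snRNA, tRNA, srpRNA and RNA), fixed as a list by class, moved in both directions. In Z18fl against Clover 15 of 26 tested pairs were called, 6 higher and 9 lower, with a median of -0.08, where 56.0% of all features were called. In Z18trunc against Clover 11 of 27 were called, 6 higher and 5 lower, with a median of 0.05, where 43.6% of all features were. The split depended on the scale, since TMM gave 3 higher and 12 lower in Z18fl, and 2 higher and 10 lower in Z18trunc. None of 26 was called in Z18truncZnFmut against Clover by edgeR, with 4 at an unadjusted p under 0.05, and the median was 0.48.

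Most BC200 sense counts were assigned to the gene itself, where 29.9% of counts over the 12 libraries came from uniquely mapping reads. The rest were multimapping reads shared out by estimate. The BCYRN1 element held 89.5% of BC200 sense counts over the 12 libraries and 58.3% of all scRNA sense counts, and was the only 1 of the 51 BC200 elements with sense counts to have them in every library. Its counts were 142.61, 176.34 and 135.35 for Clover, 279.88, 190.54 and 254.88 for Z18fl, 220.43, 273.71 and 261.28 for Z18trunc, and 237.6, 343.39 and 354.79 for Z18truncZnFmut. In CPM the means were 8.84 ± 1.35 (SD, n = 3), 10.10 ± 1.90, 10.54 ± 1.11 and 13.54 ± 3.30. Each construct overlapped with Clover, with exact permutation p = 0.5, 0.2 and 0.2, and 0.625 each after adjustment over 25 tests. In the edgeR fit over single elements the log2 fold change was 0.20 (SE 0.18), 0.25 (SE 0.17) and 0.62 (SE 0.23, adjusted p = 0.091). From uniquely mapping reads alone, which were 17.0% to 46.2% of its counts, the Z18truncZnFmut value was 1.03 and passed (adjusted p = 0.018), as did 12.4% of all elements. Without Z18truncZnFmut replicate 3, a combination chosen after seeing the data, it was 0.61 (adjusted p = 0.31), and from all reads 0.55 (adjusted p = 0.21).

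**Figure D3:**
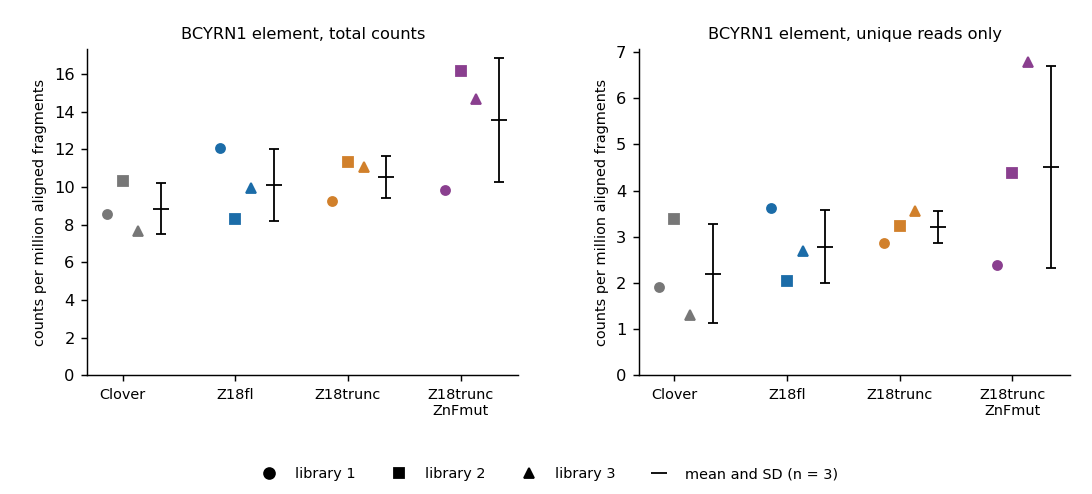
CPM (vertical axes, from 0) at the BCYRN1 element in each library, from all reads on the left and from uniquely mapping reads on the right, with the mean and SD (n = 3). The means run from 8.84 in Clover to 13.54 in Z18truncZnFmut on the left, and replicate 1 of Z18truncZnFmut lies within the Clover range in both panels.

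The reads at BCYRN1 kept to the transcript. In 11 libraries the outermost read ends lay between base -1 and base 197 of the 200 bp element, and in Z18truncZnFmut replicate 3 they reached base 253. Over all BC200 elements, 83.8% of sense counts were at elements whose reads in that library began and ended within the element, give or take 10 bp. BCYRN1, with 89.5% of BC200 sense counts, set this share. Of 126 pairs of a BC200 element and a library, 22 had their reads inside. The share of counts inside was 5.01% for the HY copies, where 62.9% of counts were at elements with reads past both ends. HY elements, with median lengths of 78 to 114 bp, are shorter than BCYRN1, so the shares do not compare equal lengths. Among SINE elements, which include the Alu elements, the shares were 13.9% and 48.7%, and among tRNA copies 1.19% and 45.1%. The extent is set by the outermost reads of a library, so it widens with the number of reads.

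The BC200 copy on chromosome X was listed in Z18truncZnFmut replicate 3 alone. It held 159.37 counts there, none of them uniquely mapping, from 449 reads with any alignment to it. In the other 11 libraries it had 0 counts, where 3 counts would have been 0.117 to 0.180 CPM. With it left out, an alternative chosen after seeing the data, the summed sense level of the class in Z18truncZnFmut exceeded that of Clover by 6.92 CPM in place of 9.11. BC200 elements other than the gene and this copy summed to 0.371 ± 0.242 CPM for Clover (SD, n = 3), 0.724 ± 0.220 for Z18fl, 0.699 ± 0.203 for Z18trunc and 0.825 ± 0.454 for Z18truncZnFmut, with overlap throughout.

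**Figure D4:**
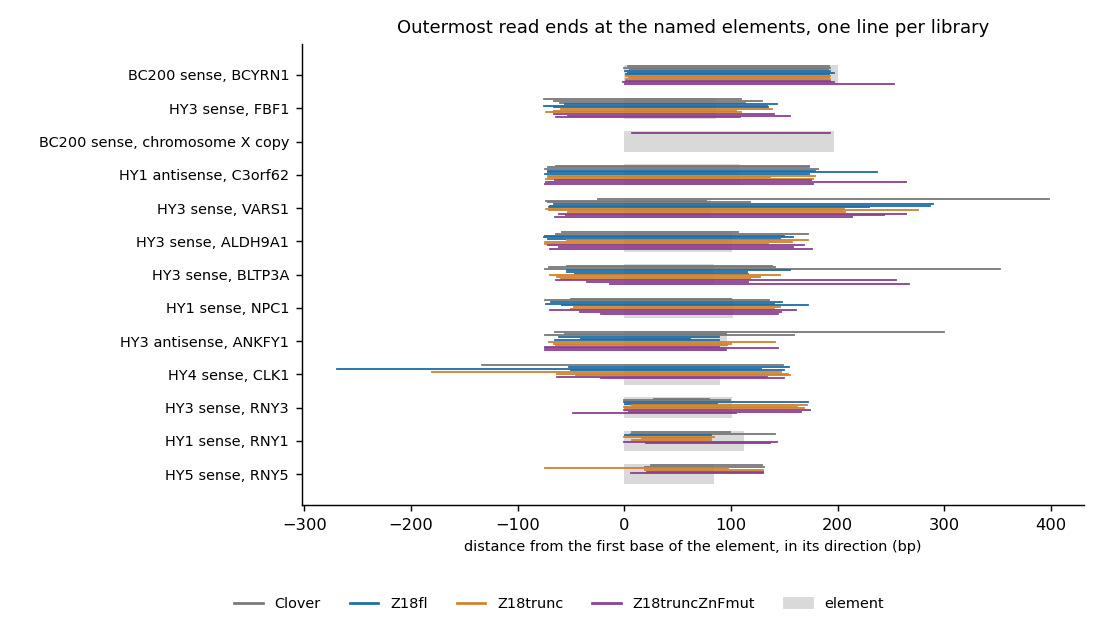
Outermost read ends at the named scRNA elements, as distance in bp from the first base of the element along its own direction, with 1 line per library coloured by construct over a grey bar for the element. The lines at BCYRN1 end within its 200 bp in 11 libraries, whereas those at copies in FBF1, C3orf62, VARS1, ALDH9A1 and NPC1 run past both ends.

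The Y RNA genes themselves were near the limit of detection. RNY3 had 0 to 7.31 counts per library, of which 12 of 41.0 over all libraries mapped uniquely. RNY1 had 0 to 7.24, with 1 unique read of 20.24, and RNY5 0 to 3, with 6 of 9. No element at RNY4 was listed. Ribosomal depletion and bead purification were part of the protocol, and their part in these low counts was not tested.

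HY counts were instead spread over many copies, most of them seen once. Of the 113 HY1 elements with sense counts, 59 had them in a single library and none in all 12. HY3 had 134 such elements, with 69 in a single library and 4 in all 12. HY1 elements with sense counts in at least 1 library of a construct numbered 20 for Clover, 51 for Z18fl, 50 for Z18trunc and 75 for Z18truncZnFmut. Such numbers grow with depth. That of Z18truncZnFmut also includes replicate 3, which listed 240 scRNA elements on either strand, against 108 and 105 in its replicates 1 and 2. Only 3 scRNA elements had enough counts for the fit over single elements, namely BCYRN1, an HY3 copy in FBF1 and an HY1 copy read antisense in C3orf62.

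None of these was called in any comparison by edgeR, where 45.7%, 28.1%, 12.2%, 3.33% and 0.354% of all elements tested were called when the 3 ZC3H18 constructs were set against Clover, Z18trunc against the full-length protein, and the zinc-finger mutant against Z18trunc, in that order. At an unadjusted p under 0.05 there were 0, 1, 2, 0 and 0, and DESeq2 called none. Between the ZC3H18 constructs, DESeq2 gave no adjusted p for some of these elements, which could not be called there.

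The strongest single HY copies lay inside protein-coding genes. The HY3 copy at chr17:75909868-75909953 on the minus strand lies in the 3′ UTR of FBF1, a gene of the centriole, and is 64.8% identical to RNY3. It had 8, 20 and 21 counts in Clover, 14, 19 and 15 for Z18fl, 8, 8 and 15 for Z18trunc, and 10, 13 and 6 for Z18truncZnFmut. Per aligned fragment these counts were lower for Z18trunc than in Clover by 1.12 on the log2 scale (SE 0.47, adjusted p = 0.087). Of 12 alternatives 2 called it, TMM scaling (-1.40, adjusted p = 0.033) and the fit without Clover replicate 1 (-1.43, adjusted p = 0.026). In those fits 30.7% and 23% of all elements were called. DESeq2 gave -1.38 (adjusted p = 0.069) and the fit of all 12 libraries -1.12 (adjusted p = 0.070). In Z18truncZnFmut the value was -1.16 (SE 0.50, adjusted p = 0.15).

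Further HY3 copies lay in the 3′ UTR of ALDH9A1, an aldehyde dehydrogenase, at chr1:165662587 with 0 to 15 counts per library, and of BLTP3A at chr6:34873843 with 1 to 16. The HY1 copy read antisense, at chr3:49270022-49270129, lies in the 3′ UTR of C3orf62 and had 10 to 13 counts in Clover and 5 to 20 elsewhere. Its log2 fold changes against Clover were -0.25 (SE 0.41), -0.69 (SE 0.45) and -0.57 (SE 0.54).

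The intronic elements of HY3, HY1 and HY4 with the most sense counts lay in VARS1, the valyl-tRNA synthetase gene, NPC1, a cholesterol transporter, and CLK1, a kinase of splicing factors. The HY1 copy in NPC1 is at chr18:23582020-23582121 and the HY4 copy in CLK1 at chr2:200863158-200863247, both on the minus strand. Both are shown because they still resemble their Y RNA gene over nearly their whole length. Bases in capitals differ from the aligned gene: 6 of 102 in NPC1 and 9 of 89 in CLK1.
HY1 in NPC1: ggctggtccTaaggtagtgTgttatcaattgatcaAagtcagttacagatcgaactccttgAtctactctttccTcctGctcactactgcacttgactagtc
HY4 in CLK1: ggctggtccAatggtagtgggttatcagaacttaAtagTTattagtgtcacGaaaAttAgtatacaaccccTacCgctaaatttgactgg

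The VARS1 copy had 4, 4 and 5 counts in Clover, 10, 8 and 7 for Z18fl, 7, 17 and 6 for Z18trunc, and 10, 4 and 8 for Z18truncZnFmut. The NPC1 copy had 2, 0 and 4 for Clover, 6, 6 and 10 for Z18fl, 10, 7 and 0 for Z18trunc, and 17, 7 and 2 for Z18truncZnFmut. The CLK1 copy had 0, 4 and 0 for Clover, 5, 8 and 4 for Z18fl, 7, 6 and 10 for Z18trunc, and 7, 0 and 3 for Z18truncZnFmut. An HY3 copy read antisense in an intron of ANKFY1, at chr17:4192768, had 1 to 11 counts per library. None of the 4 passed the filter on low counts of the main fit. With a minimum total of 5 counts in its place, none of them was called in any comparison, where 0.0463% to 3.08% of all elements were.

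Summed over copies, those in introns were higher with every ZC3H18 construct than with Clover. Sense counts of the HY copies that lie in introns, with the Y RNA genes left out, were 2.50, 2.48 and 2.38 CPM for Clover, 4.49, 4.01 and 3.97 for Z18fl, 3.66, 4.35 and 4.04 for Z18trunc, and 4.36, 3.41 and 4.14 for Z18truncZnFmut. Every ZC3H18 library was above every Clover library, as was true of 34.7% of all 1871 subfamily and strand pairs tested. The means of 4.16 ± 0.288 (SD, n = 3), 4.02 ± 0.346 and 3.97 ± 0.499 were 1.70, 1.64 and 1.62 times the Clover mean of 2.45 ± 0.066. Each difference had an exact permutation p of 0.1, the smallest possible, and 0.188 after adjustment over 30 tests, all of which were added after the values were seen. The differences were 1.54 to 1.80 CPM, 1.40 to 1.75 and 1.32 to 1.80 when each library was left out in turn, Z18truncZnFmut replicate 3 among them. The ZC3H18 constructs did not differ from each other by more than their spread. By subfamily, intronic HY1 copies lay above every Clover library with each construct, while intronic HY3 copies overlapped with Clover in all 3. The HY3 ranges were 1.02 to 1.54 CPM for Clover, 1.44 to 2.06 for Z18fl, 1.39 to 2.45 for Z18trunc and 1.38 to 1.95 for Z18truncZnFmut.

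HY copies in exons were not higher than in Clover. They were at 2.07 ± 0.847 CPM for Clover (SD, n = 3), 1.80 ± 0.272 for Z18fl, 1.23 ± 0.268 for Z18trunc and 1.36 ± 0.120 for Z18truncZnFmut, and all constructs overlapped with Clover. This exonic sum rested on 15 copies with counts, against 166 in introns. The HY3 copies in the 3′ UTRs of FBF1, ALDH9A1 and BLTP3A held 157, 88 and 67 of its counts over the 12 libraries, so few loci set it. The log2 ratio of intronic to exonic HY counts was above that of Clover by 0.89 for Z18fl, 1.40 for Z18trunc and 1.22 for Z18truncZnFmut, with no overlap (exact permutation p = 0.1, 0.188 adjusted). Of the libraries left out in turn, Clover replicate 3, whose exonic level was the highest of the 12, lowered the values most, to 0.56, 1.07 and 0.89. The HY3 total, with 34.5% of its sense counts in exons, combined intronic copies at 1.21 ± 0.284 CPM for Clover and 1.82 ± 0.330 for Z18fl with exonic ones at 1.68 ± 0.806 and 1.39 ± 0.222. In HY1, where 15.3% of sense counts were exonic, the intronic copies were at 0.833 ± 0.122 for Clover and 1.68 ± 0.360 for Z18fl. HY1 copies other than the 1 in NPC1 also lay above every Clover library in each construct, with means of 1.09 ± 0.137, 1.84 ± 0.362, 1.66 ± 0.245 and 2.07 ± 0.546 CPM from Clover to Z18truncZnFmut.

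Transposable elements around the intronic HY copies were higher as well, by less. Those within 5 kb, read on the same strand as the copy, summed to 186.4 CPM for Clover, 220.0 for Z18fl, 231.4 for Z18trunc and 230.1 for Z18truncZnFmut. They were not limited to the intron or gene of the copy, so elements in exons or in other genes could be among them. A ratio to them therefore does not set intron against intron. The log2 ratio of intronic HY copies to these flanking elements was -6.25 for Clover and higher by 0.52 for Z18fl, 0.40 for Z18trunc and 0.39 for Z18truncZnFmut. Groups did not overlap in any of the 3 (exact permutation p = 0.1, 0.188 adjusted), and leaving out each library in turn gave 0.47 to 0.58, 0.36 to 0.47 and 0.30 to 0.45. With flanks of 10 kb the differences were 0.36, 0.27 and 0.28, and with uniquely mapping reads 0.59, 0.59 and 0.47, again with no overlap.

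**Figure D5:**
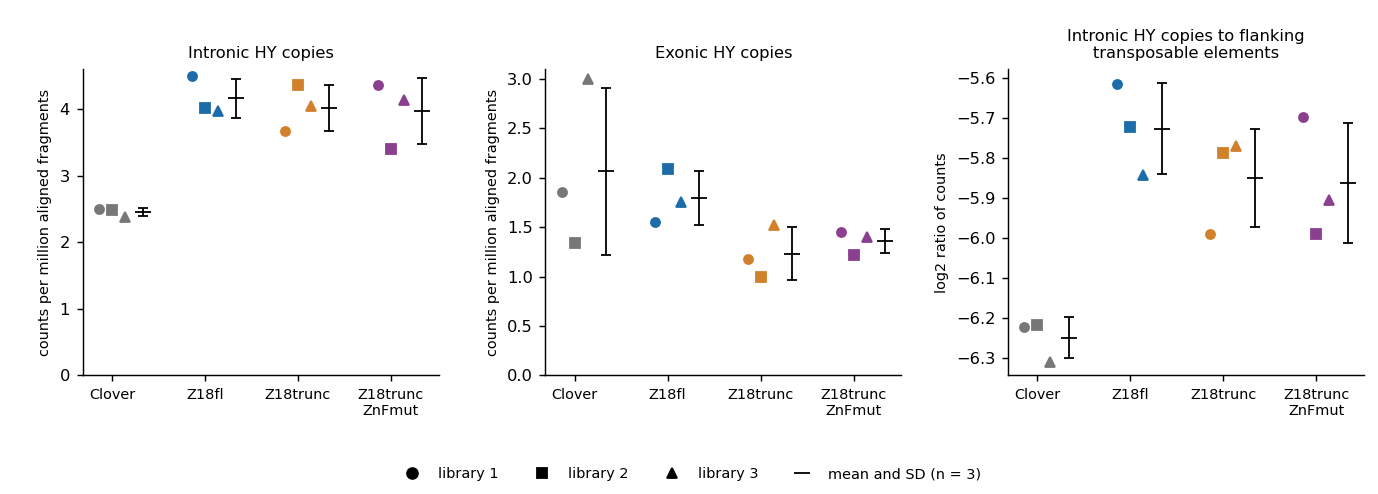
Sense CPM of HY copies in introns (left) and in exons (middle), and the log2 ratio of intronic copies to the transposable elements within 5 kb of them (right), with 1 point per library and the mean with its SD (n = 3). The Clover libraries lie below all 9 ZC3H18 libraries on the left and on the right, and overlap with them in the middle.

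The share of scRNA sense counts from uniquely mapping reads was 42.5% ± 1.89 for Clover (SD, n = 3), 48.7% ± 2.17 for Z18fl, 49.4% ± 0.988 for Z18trunc and 42.6% ± 3.66 for Z18truncZnFmut. Every Z18fl and Z18trunc library lay above Clover (exact permutation p = 0.1, 0.275 adjusted), while Z18truncZnFmut overlapped with it. Between 65.9% and 84.5% of HY1 and HY3 sense counts mapped uniquely over the 3 libraries of a construct, against 27.3% of BC200 sense counts for Clover.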

How the data were processed

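Anti-V5 PAR-CLIP RNA from A375 cells was sequenced after ribosomal depletion, without size selection of the protein, in 12 libraries. Per the submitters' processing notes, reads were trimmed with cutadapt 4.6 and the genome build was hg38. The authors quantified repeat elements with SQuIRE, whose version is not given in the sources used here. The deposited tables list, for each element and read strand with any read, a count of uniquely mapping reads, and an estimated count in which the authors shared out multimapping reads by expectation maximisation. A deposited score gives that estimated count in percent of the reads with any alignment there. Gene annotation was GENCODE 44 and RefSeq, both for hg38.

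Counts were summed by subfamily and strand and divided by the number of aligned fragments. Estimated counts were rounded and fitted with edgeR 4.0.16 (quasi-likelihood, R 4.3.3, limma 3.58.1) over all repeat subfamilies, and over all elements, on both strands, with filterByExpr (minimum count 10, minimum total 15) and library sizes set to aligned fragments. Only the 6 libraries compared entered a fit. Calls had a Benjamini-Hochberg adjusted p under 0.05. For single values, differences in means were tested by exact permutation, two-sided. DESeq2 1.42.0 and TMM were alternatives, as were unique reads, other filters, all 12 libraries, the element strand alone, a replicate block and each library left out. The fits were tested on simulated data. Sequences were read from hg38 with pysam 0.24.0 and aligned with Biopython 1.88, and some sequences are not reported here. An element was exonic where at least 50% of it lay in exons of an annotated gene on the strand read. Depth leaves most copies with a few counts, so that single copies could seldom be tested.

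Loci named were those at the Y RNA and BCYRN1 genes, the 10 element and strand pairs with the highest mean level over the 4 constructs, and, for each comparison, the strongest calls with a mean of at least 20 counts, of which there were none. The BC200 copy on chromosome X is among the 10. The members and lists were chosen with earlier results of these data known. Replicate numbers come from the titles. Deviations of same-numbered libraries from their group means, over 1822 subfamily and strand pairs, correlated at 0.47, 0.235 and 0.637 between Z18truncZnFmut and Z18trunc, and at -0.273 to 0.0188 in the other comparisons, so the numbers were taken to pair libraries in the former alone. Deviations from a mean cancel within a group, so the correlations of a comparison are not independent. Z18truncZnFmut replicate 3, which stood apart, enters each of its construct's correlations through the group mean.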

Additional observations from a re-analysis of the deposited data

How the results depend on the processing

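Of 1322 values recomputed under alternatives for 119 results, 1189 kept their direction and their side of the threshold or stayed within the spread. Another 69 moved, 48 were counted as reversed, 10 came to pass the test and 6 ceased to. A reversed value was a log2 fold change that changed sign, or a difference that did so where the groups had not overlapped. Sign changes in differences between overlapping groups were counted among the 69 or the 1189, so sign changes in all number more than 48. Of the 48 reversed, 10 came with TMM and 10 with DESeq2, which set the bulk of features to no change. A further 4 came with scaling to transposable element counts, 20 with a library left out, 2 with unique reads and 2 without exonic elements. Log2 fold changes under TMM and DESeq2 were -0.20 and -0.21 for BC200 sense and -0.26 and -0.28 for HY3 sense in Z18fl against Clover, and -0.16 and -0.20 and -0.41 and -0.45 in Z18trunc against Clover. In Z18truncZnFmut against Clover they were -0.73 and -0.73 for HY3 and -0.13 and -0.13 for HY4, and DESeq2 gave -0.0034 for BC200. HY3 in Z18truncZnFmut against Z18trunc gave -0.25 and -0.26, and BC200 in Z18trunc against Z18fl gave -0.0015 with TMM. The BCYRN1 element gave -0.10 and -0.047 in Z18fl and -0.032 and -0.00081 in Z18trunc against Clover.

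In counts per 1000000 transposable element counts, the class level differed from Clover by -25.3 sense and -4.99 antisense in Z18fl, by -57.2 and -9.53 in Z18trunc and by -7.73 antisense in Z18truncZnFmut, and by -4.54 antisense in Z18trunc against Z18fl. The sense difference of Z18trunc from Clover was 1.39 CPM without the gene loci and 1.47 without the BCYRN1 element, and that of Z18truncZnFmut 3.85 from unique reads. Without elements in exons, the intronic share of the other copies differed from Clover by -0.551 percentage points in Z18fl and -1.78 in Z18trunc. With unique reads, HY4 sense in Z18trunc against Z18fl was 0.15 and HY3 in Z18truncZnFmut against Z18trunc -0.090.

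Of the 8 scRNA pairs, TMM, DESeq2 and the fit of all 12 libraries called 0 in Z18fl against Clover, where 31.1%, 26.6% and 4.83% of all features were called, and the last called 2 in Z18truncZnFmut against Clover, BC200 sense (adjusted p = 0.039) and HY1 sense (adjusted p = 0.037), where 51.2% of all were. With 1 library left out, 0 to 1 was called in either comparison, with 0 in Z18fl without Z18fl replicate 2 (48.4% of all features) and 1 in Z18truncZnFmut without its replicate 3 (23.3%). Of single elements, TMM called 1 in Z18trunc against Clover (30.7% of all), where leaving out a library called 0 to 1. In Z18truncZnFmut against Clover, a minimum total of 5 counts, unique reads and the fit of all 12 libraries called 1 each (0.484%, 12.4% and 14.4% of all) and leaving out a library 0 to 1. A minimum total of 5 also called 1 in Z18truncZnFmut against Z18trunc, the chromosome X copy, which rests on 1 library (0.0463% of all).

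Leaving out a library in turn gave log2 fold changes of -0.080 to 0.27 and -0.091 to 0.30 for HY3 sense in Z18trunc and Z18truncZnFmut against Clover. In Z18trunc against Z18fl it gave -0.075 to 0.18 for BC200, -0.25 to 0.0072 for HY3, -0.53 to 0.20 for HY4 and -0.063 to 0.21 for BCYRN1. In Z18truncZnFmut against Z18trunc it gave -0.13 to 0.15 for HY3, -0.44 to 0.31 for HY4 and -0.65 to 0.48 for the C3orf62 copy. The cause of these changes was not tested.

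With the replicate number as a block, HY1 sense in Z18fl stayed at 0.71 (adjusted p = 0.039), and no call on an scRNA subfamily or element changed in any of the 5 comparisons.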

Other observations

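HY copies outside genes were few but leaned the same way as the intronic ones. Those between genes were at 0.255 ± 0.144 CPM in Clover (SD, n = 3), 0.560 ± 0.151 in Z18fl, 0.437 ± 0.120 in Z18trunc and 0.694 ± 0.449 in Z18truncZnFmut. All Z18fl and Z18trunc libraries lay above Clover, as was true of 57.9% and 53.7% of all subfamily and strand pairs tested. Z18truncZnFmut overlapped with Clover, and no group reached a mean of 1 CPM. Copies that lie against the direction of a gene were at 0.255 ± 0.127 CPM for Clover, 0.251 ± 0.130 for Z18fl, 0.407 ± 0.0444 for Z18trunc and 0.586 ± 0.602 for Z18truncZnFmut, with overlap in all 3 constructs. Neither difference was tested.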
